A study of Arabidopsis thaliana with 2 samples.

Results

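A set of 8 genes was grouped here under the last step of secretion at the pollen tube tip. It held the plasma membrane syntaxins SYP124, SYP125, SYP131 and SYP132, the vesicle SNAREs VAMP724, VAMP725 and VAMP726, and the small GTPase RABA4D. The 8 genes were taken by name for known roles of the genes or their families. They were matched by locus among the 33322 nuclear loci of the deposited tables, where all 8 were found. RNA sequencing was available from pollen of open flowers of Arabidopsis thaliana, from 2 laboratory ecotypes, Ler-0 and Col-0, the latter being the accession behind the TAIR10 assembly. Each ecotype had 1 library, made from total RNA depleted of rRNA, and the labels name no mutation, transgene or treatment in either. Plants in long days supplied the flowers, and the sources used here do not give plant age or the number of plants per library. With 1 library each, ecotype, plants, collection and library preparation cannot be told apart, and no difference between the libraries has a replicate check.

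A pollen tube grows at its tip, where secretory vesicles deliver membrane and wall material by exocytosis. Fusion is driven by SNARE proteins. A Qa-SNARE (syntaxin) on the target membrane, an R-SNARE (VAMP) and partner Qb and Qc helices zip into a bundle that pulls the membranes together. RAB GTPases of the RABA group guide vesicles from the trans-Golgi network to the plasma membrane, and RABA4D is known for its need in polar pollen tube growth. SYP124, SYP125 and SYP131 are known as pollen syntaxins, whereas SYP132 is known from vegetative tissues, where it serves secretion in many cell types.

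Levels are given as deposited FPKM, a fragment count scaled by gene length and library size. The reads recovered from them summed to 76488187 for Col-0 and 88952509 for Ler-0. All 8 listed vegetative cell markers and all 6 sperm cell markers were at FPKM 1 or more in at least 1 library. Their summed levels were 3322 and 198 FPKM in Col-0 pollen, and 3900 and 296 in Ler-0. Single markers moved apart within both lists. Among sperm cell markers MGH3 stood at 58.0 FPKM in Col-0 pollen and 138 in Ler-0, and GEX2 at 11.6 and 5.84. The highest vegetative cell marker, PRK2, stood at 1432 and 1716 FPKM, CPK34 at 131 and 461, and ANX2 at 936 and 697. The 4 green tissue markers summed to 38.8 FPKM in Col-0 pollen and 40.6 in Ler-0. The 4 floral organ markers summed to 2.48 and 3.63, and the 6 tapetum markers to 1.96 and 2.47, with no marker at 0 reads. The floral organ list held markers moving both ways, with AP3 at 0.262 and 0.0225 FPKM (40 and 4 reads) and SEP3 at 0.911 and 1.82. So did the tapetum list, with AMS at 0.470 and 0.151 and EXL5 at 0.915 and 1.33. Within the green tissue list LHCB1.1 carried most of the sum, at 28.9 and 33.1 FPKM, and the others moved apart: RBCS1A stood at 4.07 FPKM in Col-0 pollen and 1.66 in Ler-0, RBCS1B at 3.03 and 0.786, and RCA at 2.75 and 5.02. The part of these tissues in the levels below was not tested, and in such bulk RNA fewer cells of a type and less RNA per cell cannot be told apart.

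Within the syntaxins and within the VAMPs the members are paralogs, so the letters that separate them decide whether reads can be assigned. RABA4D has no paralog among the 8. The lines below show, for the closest pair of each kind, the 60 coding bases within 1 exon where the pair is most alike, with capitals at the bases that differ (RefSeq TAIR10.1, plus strand).
SYP124, chr1:22606067-22606126: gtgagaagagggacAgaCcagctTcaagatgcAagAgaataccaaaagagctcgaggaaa
SYP125, chr1:3769557-3769616: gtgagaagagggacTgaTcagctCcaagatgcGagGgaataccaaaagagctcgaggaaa
SYP131, chr3:970840-970899: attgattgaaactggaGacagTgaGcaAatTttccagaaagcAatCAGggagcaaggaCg
SYP132, chr5:2590347-2590406: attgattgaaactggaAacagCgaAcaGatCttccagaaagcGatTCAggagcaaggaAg
VAMP725, chr2:13858771-13858830: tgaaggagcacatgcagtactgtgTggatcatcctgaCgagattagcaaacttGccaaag
VAMP726, chr1:1335571-1335630: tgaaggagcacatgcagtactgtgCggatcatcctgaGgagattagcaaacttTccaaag
Even there SYP124 and SYP125 differed at 5 of 60 bases, SYP131 and SYP132 at 10, and VAMP725 and VAMP726 at 3. Over the whole aligned coding sequence SYP124 and SYP125 were 82.2% identical, SYP131 and SYP132 73.6%, and VAMP725 and VAMP726 87.6%, and the longest stretches without a difference were 35, 16 and 24 bases. No run of 50 bases from the deposited interval of any of the 8 genes occurred elsewhere in the nuclear genome (0 of 1159 runs for SYP124, 0 of 1262 for VAMP726), so full-length matches of that size are unique to each gene. The sources used here do not give read length or the rule for reads with several matches, and sequence differences of Ler-0 were not examined.

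SYP131 held the highest level of the 8 genes in both libraries, followed in the same order by SYP124, SYP125, RABA4D, VAMP726, VAMP725, SYP132 and VAMP724. Among the 27213 protein-coding loci SYP131, SYP124 and SYP125 lay between percentiles 98.3 and 99.1, while VAMP724 lay at 47.0 in Col-0 and 41.5 in Ler-0. Within each library the counting intervals of neighbours in this order did not meet on the FPKM scale. Intervals are exact 95% Poisson intervals on reads. They cover counting error only, not variation between plants or libraries. Amplified reads are not independent molecules, so even for counting error the intervals may be too narrow.

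**Figure D1:**
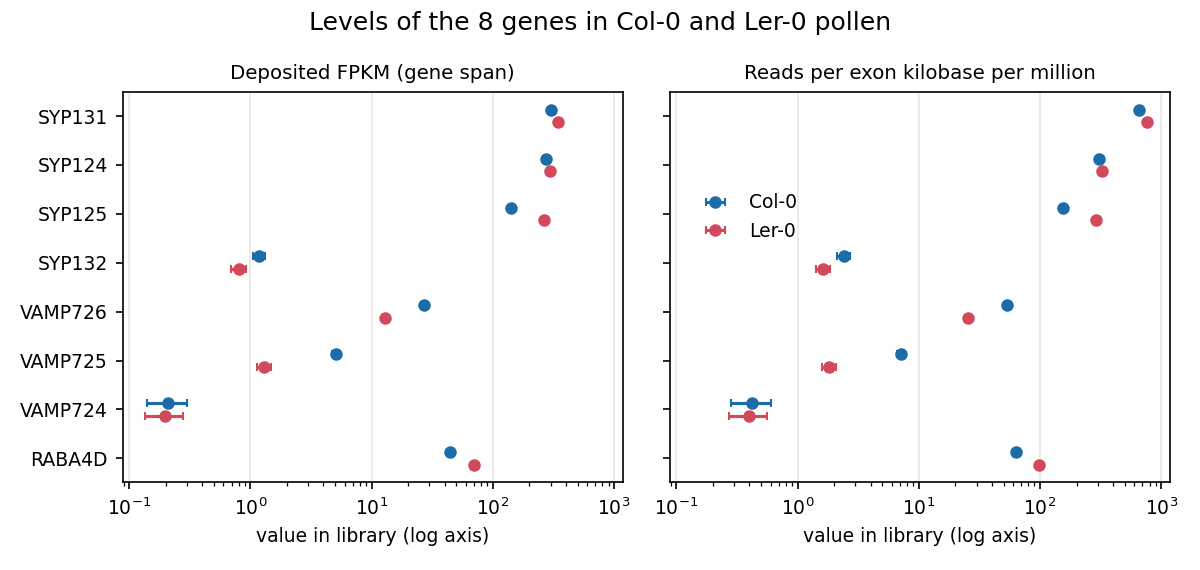
Levels of the 8 genes in the Col-0 (blue) and Ler-0 (red) libraries on log axes, as deposited FPKM over the gene span (left) and as reads per kilobase of annotated exon, scaled to the library total as FPKM is (right); bars are 95% Poisson intervals for counting error. SYP131, SYP124 and SYP125 lie above 100 in both libraries and both scales, VAMP724 lies below 1 throughout, and the VAMP725 and VAMP726 points of Ler-0 lie left of those of Col-0.

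Of the syntaxins, SYP131 (AT3G03800, TAIR10 chromosome 3, 969107 to 971460, plus strand) stood at 301 FPKM in Col-0 pollen and 348 in Ler-0. It rested on 54203 and 72737 reads, and its level ranked 287 and 255 among coding genes. SYP124 (AT1G61290, chromosome 1, 22605009 to 22606216, plus strand) stood at 275 FPKM in Col-0 pollen and 295 in Ler-0, with 25346 and 31651 reads. Both pollen syntaxins were thus high in both libraries and slightly higher in Ler-0 on the FPKM scale. The Ler-0 to Col-0 ratio of FPKM was 1.15 for SYP131 (95% interval 1.14 to 1.17, exact binomial, counting error only) and 1.07 for SYP124 (1.06 to 1.09). SYP131 was 1.097 times SYP124 in Col-0 and 1.18 times in Ler-0.

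That near tie between SYP131 and SYP124 depended on the length used. The deposited FPKM divide by the gene span, introns included, and annotated exons fill 45.9% of the span of SYP131, whose coding sequence lies in 12 exons, against 90.3% for SYP124 with 2. Per kilobase of exon, SYP131 stood at 656 in Col-0 and 757 in Ler-0, which was 2.16 and 2.32 times SYP124. The sources used here do not say whether the authors counted reads over exons or over whole spans, so both scales are shown. The order of the 8 genes was the same on both scales in each library, although in Ler-0 the per-exon intervals of VAMP725 (1.82, 1.59 to 2.08) and SYP132 (1.63, 1.42 to 1.86) met.

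SYP125 (AT1G11250, chromosome 1, 3768724 to 3769706, plus strand), the closest paralog of SYP124, stood at 141 FPKM in Col-0 pollen and 263 in Ler-0. This was the widest gap among the syntaxin members, with a ratio of 1.86 (1.82 to 1.91) over 10606 and 22992 reads. SYP124 was therefore 1.94 times SYP125 in the Col-0 library but 1.12 times in Ler-0. In the RefSeq annotation of TAIR10.1, exons of the minus-strand gene AT1G11240, named as a ribosomal RNA-processing protein, cover all 983 bases of SYP125, although the deposited intervals of both genes are 429 bases apart. AT1G11240 itself stood at 3.28 FPKM in Col-0 pollen and 55.0 in Ler-0, 16.8-fold higher (15.2 to 18.6). Its FPKM equalled 2.32% of that of SYP125 in Col-0 and 20.9% in Ler-0. Without a stated use of strand, reads of the 2 genes within SYP125 cannot be told apart in the deposited values. The part of AT1G11240 in the SYP125 gap was not tested.

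SYP132 (AT5G08080, chromosome 5, 2588342 to 2591316, plus strand) stood at 1.18 FPKM in Col-0 pollen (1.05 to 1.33) and 0.801 in Ler-0 (0.697 to 0.917), on 269 and 212 reads. The Ler-0 to Col-0 ratio was 0.678 (0.563 to 0.814). SYP131, its sister gene, was 255 times higher in Col-0 and 434 times higher in Ler-0 on the FPKM scale, and 273 and 465 times per kilobase of exon. Because the pair stood so far apart, the 250 bases before their RefSeq gene starts (TAIR10.1) are shown, plus strand, with AGAAA and its reverse complement TTTCT, the core of a pollen promoter element first described in tomato, in capitals.
SYP131, chr3:968800-969049: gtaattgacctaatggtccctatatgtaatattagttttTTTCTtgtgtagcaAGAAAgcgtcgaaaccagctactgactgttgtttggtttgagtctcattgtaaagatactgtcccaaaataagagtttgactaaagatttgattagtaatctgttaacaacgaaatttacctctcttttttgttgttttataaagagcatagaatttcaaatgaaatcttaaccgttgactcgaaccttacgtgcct
SYP132, chr5:2587910-2588159: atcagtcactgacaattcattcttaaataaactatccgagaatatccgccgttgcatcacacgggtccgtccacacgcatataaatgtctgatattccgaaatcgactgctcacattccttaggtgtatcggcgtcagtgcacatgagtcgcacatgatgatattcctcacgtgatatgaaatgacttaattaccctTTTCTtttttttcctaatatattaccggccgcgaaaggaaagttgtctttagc
The window of SYP131 held 2 AGAAA matches over both strands and that of SYP132 held 1. Among the other members SYP124 had 2, SYP125 4, VAMP724 3, VAMP725 5, VAMP726 2 and RABA4D 0. At least 1 match was present in 82.5% of 26725 coding gene windows of the same length, with a median of 2. The shorter GTGA (reverse complement TCAC), known from a pollen promoter of tobacco and not set in capitals, occurred 0 times in the window of SYP131 and 5 times in that of SYP132. It occurred once in SYP124, 2 times each in VAMP724, VAMP726 and RABA4D, and 0 times in SYP125 and VAMP725, while 77.5% of all windows held it, with a median of 1. The windows of SYP124, SYP125 and RABA4D run into a neighbouring gene. The part of these windows or matches in the levels of the members was not tested.

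Among all 9 SYP1 syntaxins, the 4 members carried 99.4% of the summed FPKM in Col-0 pollen and 99.0% in Ler-0. SYP131 alone held 41.7% and 38.0%, SYP124 38.0% and 32.2%, and SYP125 19.6% and 28.8%. Per kilobase of exon the share of SYP131 was 58.5% in Col-0 and 54.7% in Ler-0. Pollen RNA of the family was thus almost wholly of 3 genes on either scale. The highest of the other 5 was SYP112, a relative of the cytokinesis syntaxin KNOLLE, at 3.07 FPKM in Col-0 pollen and 8.20 in Ler-0, with a Ler-0 to Col-0 ratio of 2.67 (2.34 to 3.06). KNOLLE itself (SYP111), which acts at the cell plate, SYP121 (PEN1) and SYP122, which act in secretion and defence of vegetative cells, and SYP123, known from root hair tips, each stayed under FPKM 1 in both libraries.

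**Figure D2:**
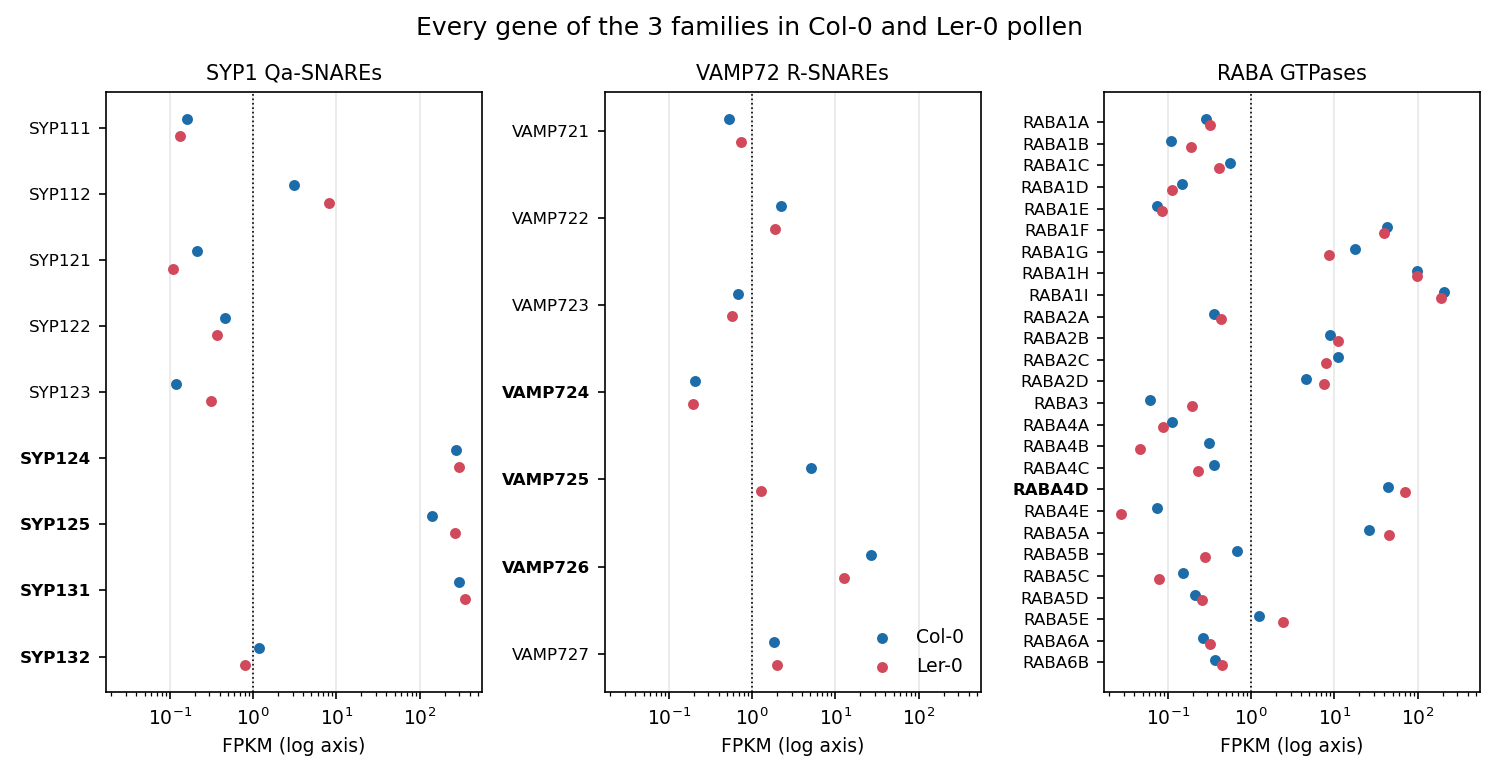
FPKM of every gene of the SYP1, VAMP72 and RABA families in Col-0 (blue) and Ler-0 (red) pollen, on log axes, with the 8 genes in bold and a dotted line at FPKM 1. SYP131, SYP124 and SYP125 stand far right of the other SYP1 genes, VAMP726 leads the VAMP72 genes, and RABA4D ranks 3 among 26 RABA genes in both libraries.

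The R-SNARE members were lower than the pollen syntaxins and unlike one another. VAMP726 (AT1G04760, chromosome 1, 1334760 to 1336070, plus strand) led them at 27.1 FPKM in Col-0 pollen (26.1 to 28.2) and 12.9 in Ler-0 (12.2 to 13.5), on 2719 and 1498 reads. VAMP725 (AT2G32670, chromosome 2, 13857877 to 13859774, plus strand) stood at 5.09 FPKM in Col-0 pollen (4.73 to 5.47) and 1.30 in Ler-0 (1.13 to 1.48), on 738 and 219 reads. Both were higher in Col-0, VAMP726 with a Col-0 to Ler-0 ratio of 2.11 (1.98 to 2.25) and VAMP725 with 3.92 (3.37 to 4.58). The build named for the processing was TAIR10, a Col-0 assembly, and the part of Ler-0 sequence differences in these ratios was not tested. VAMP725 shares 6 bases with the deposited interval of RLP23, which had 96 and 27 reads in all.

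VAMP724 (AT4G15780, chromosome 4, 8979889 to 8981768, minus strand) was close to silent in both libraries. It stood at 0.209 FPKM in Col-0 pollen (0.141 to 0.298) and 0.197 in Ler-0 (0.136 to 0.277), on 30 and 33 reads. The Ler-0 to Col-0 ratio of 0.946 had an interval of 0.559 to 1.61, so no difference between the libraries was detectable at this depth. The detection floor of 3 reads lay at 0.0209 FPKM in Col-0 pollen and 0.0179 in Ler-0, well under its level. VAMP726 was 130.0 times VAMP724 in Col-0 and 65.1 times in Ler-0.

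In the VAMP72 family of 7 genes, VAMP726 held 71.9% of the summed FPKM in Col-0 pollen and 65.7% in Ler-0, and VAMP725 13.5% and 6.63%. VAMP725 ranked 2 in the family in Col-0 and 4 in Ler-0. VAMP721 and VAMP722, the broadly used partners of the vegetative syntaxins, were low in pollen, with VAMP721 under FPKM 1 in both and VAMP722 at 2.23 in Col-0 and 1.90 in Ler-0. VAMP727, which acts on the route to the vacuole, stood at 1.86 and 1.99 FPKM. Their ratios lay nearer to 1 than those of VAMP725 and VAMP726, at 0.855 (0.736 to 0.994) for VAMP722 and 1.07 (0.925 to 1.23) for VAMP727. Summed FPKM of the SYP1 family was 19.1 times that of the VAMP72 family in Col-0 and 46.8 times in Ler-0, and 15.9 and 37.8 times per kilobase of exon.

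RABA4D (AT3G12160, chromosome 3, 3879495 to 3880437, minus strand) stood at 44.7 FPKM in Col-0 pollen (43.2 to 46.3) and 70.0 in Ler-0 (68.2 to 71.8). It rested on 3223 and 5868 reads, with Ler-0 1.57-fold higher (1.50 to 1.63), and ranked 917 and 679 among coding genes. Its nearest relatives by name were almost without RNA. RABA4B, known from root hair tips, rested on 34 reads for Col-0 and 6 for Ler-0, RABA4A on 12 and 11, RABA4C on 32 and 24, and the pseudogene RABA4E on 7 and 3. RABA4D thus carried nearly all reads of the RABA4 genes in both libraries, and its coding sequence was 72.8% identical to RABA4C, 70.4% to RABA4A and 67.5% to RABA4B.

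RABA4D did not have the highest RNA level of the RABA genes in either library. RABA1I stood at 206 FPKM in Col-0 pollen and 189 in Ler-0, which was 4.61 and 2.70 times RABA4D, and RABA1H at 97.2 and 99.1. RABA4D ranked 3 of 26 in both libraries, with 9.62% of the summed FPKM in Col-0 pollen and 14.4% in Ler-0. RABA1F was next in Col-0 (42.8 FPKM, with 40.0 in Ler-0) and RABA5A in Ler-0 (45.3 FPKM, with 26.3 in Col-0). Of the other expressed RABA genes, RABA1G stood at 17.6 and 8.75 FPKM, RABA2B at 8.91 and 11.0, RABA2C at 11.2 and 7.95, RABA2D at 4.59 and 7.51, and RABA5E at 1.24 and 2.45. RABA1F, RABA1G, RABA1I and RABA5A overlap another annotated gene on the opposite strand, so their reads stay uncertain while the use of strand is not stated.

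To set the members against the whole transcriptome, each gene was given a log2 ratio (Ler-0 to Col-0, each FPKM raised by 1), from which the median (0.06, over the 6656 loci with FPKM of at least 1 in both) was subtracted. The pseudocount understates the ratio of low genes. A gene of any locus type, protein-coding or not, with FPKM of at least 1 in either library is called expressed. Of the 7 expressed members, 2 (VAMP725 and VAMP726) passed 2-fold on this scale with Col-0 the higher, and 0 with Ler-0 the higher. The background over all 9562 expressed genes was 10.3% past 2-fold on the Col-0 side and 11.3% on the Ler-0 side, with a median of 0.06, against a median of 0.04 for the 7 members. Past 4-fold the members counted 0 on either side, where the background was 2.22% for Col-0 and 3.44% for Ler-0. With a pseudocount of 5 the count in Col-0 was 0, and with centring on genes of FPKM 10 or more it was 1.

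The centred log2 ratios were -1.47 for VAMP725, -1.08 for VAMP726 and -0.34 for SYP132, and 0.83 for SYP125, 0.57 for RABA4D, 0.14 for SYP131 and 0.04 for SYP124. On the Col-0 side 4.51% of expressed genes lay at least as far as VAMP725 and 8.93% as far as VAMP726, and on the Ler-0 side 15.0% lay as far as SYP125 and 23.7% as far as RABA4D. SYP124 and SYP131 were thus near the centre of the distribution, SYP125 and RABA4D on its Ler-0 side, and the pair of R-SNAREs on its Col-0 side. VAMP724, at -0.08, was under FPKM 1 in both libraries, and its sign turned under centring on genes at FPKM 10 or more.

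**Figure D3:**
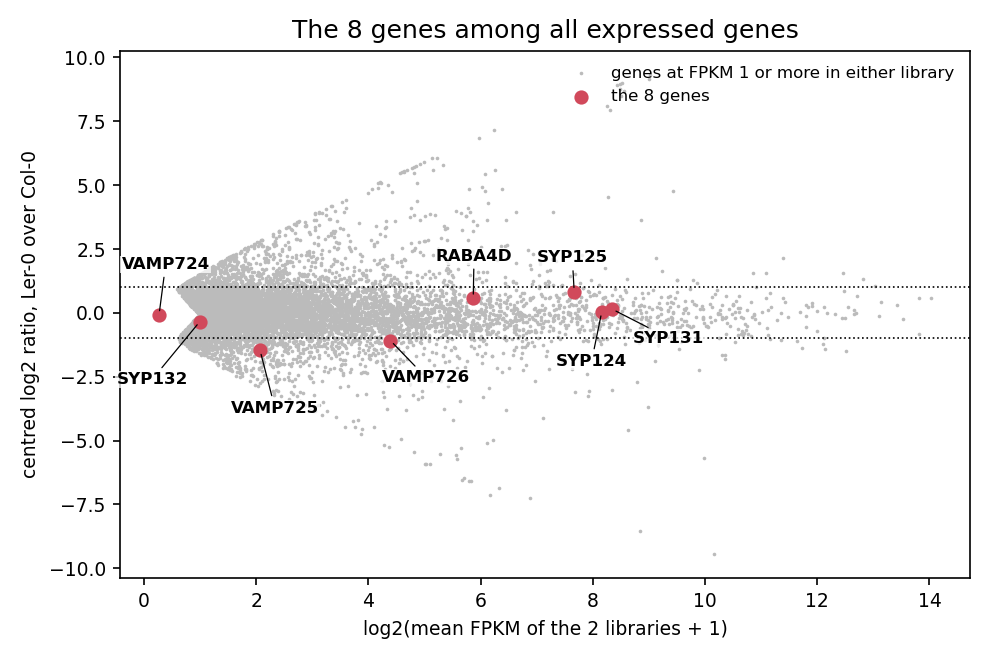
Centred log2 ratio, Ler-0 over Col-0, against the log2 mean FPKM of the 2 libraries for 9562 expressed genes (grey) and the 8 genes (red), with dotted lines at 2-fold. VAMP725 (-1.47) and VAMP726 (-1.08) lie below the lower line, and SYP125 (0.83) and RABA4D (0.57) lie above 0 but inside the lines.

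The partner SNAREs of the plasma membrane had a few highly expressed genes. Of 9 listed, 6 were expressed, 1 of them past 2-fold toward Ler-0 (background 11.3%) and 0 toward Col-0 (background 10.3%), counts near the background, with a median centred log2 ratio of 0.16. With a pseudocount of 0.1 the count toward Ler-0 was 2, SYP73 being the other. SNAP30, a SNAP25-type protein that supplies the Qb and Qc helices in one chain, stood at 52.1 FPKM in Col-0 pollen and 183 in Ler-0, 3.52-fold higher (3.41 to 3.63), while SNAP33 and SNAP29 stayed under FPKM 1. SYP72, a Qc-SNARE, stood at 118 and 74.8 FPKM, and its relative SYP73 at 0.863 and 2.51. The Qb-SNARE NPSN11, known as a partner of KNOLLE, stood at 25.0 and 22.9 FPKM, NPSN12 at 6.68 and 10.4, and NPSN13 at 6.84 and 5.22. In Ler-0 SNAP30 thus exceeded SYP72, and in Col-0 the order was the reverse.

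Of 6 proteins that bind or take apart SNARE complexes, 5 were expressed, 0 of them past 2-fold toward Ler-0 (background 11.3%) or Col-0 (10.3%), with a median of -0.11. A count of 0 among 5 genes is near that background. The Sec1/Munc18 proteins, which clasp syntaxins, were all expressed: SEC1A stood at 56.9 FPKM in Col-0 pollen and 45.7 in Ler-0, KEULE (KEU) at 41.4 and 40.1, and SEC1B at 16.3 and 20.0. NSF, the ATPase that separates spent complexes, stood at 4.62 and 8.34 FPKM, and its adaptor ALPHA-SNAP2 (ASNAP2) at 24.1 and 19.4. KEULE and ALPHA-SNAP2 overlap an opposite-strand gene over 45 and 85 bases.

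RAB regulators and the lipid kinases that RABA4 proteins recruit had 4 of 8 genes expressed, 0 of them past 2-fold toward either library (background 11.3% toward Ler-0 and 10.3% toward Col-0), and a median of -0.02. With 4 genes, a count of 0 is near the background. GDI3, of the GDP dissociation inhibitors that recycle RAB proteins, stood at 54.8 FPKM in Col-0 pollen and 55.2 in Ler-0, and GDI2 at 7.12 and 10.3. PI4KB1, the phosphatidylinositol 4-kinase known as a RABA4B effector, stood at 4.37 and 4.65 FPKM, and PI4KB2 at 1.06 and 0.709. Over all 7 pathway lists without the members, 51 of 90 genes were expressed, 4 of them past 2-fold toward Ler-0 (background 11.3%) and 0 toward Col-0 (background 10.3%), with a median of 0.01 against 0.06 over all expressed genes. With a pseudocount of 0.1 the counts were 6 and 1, the gene on the Col-0 side being RABA1G (-1.08, against -0.99 with the main setting).

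**Figure D4:**
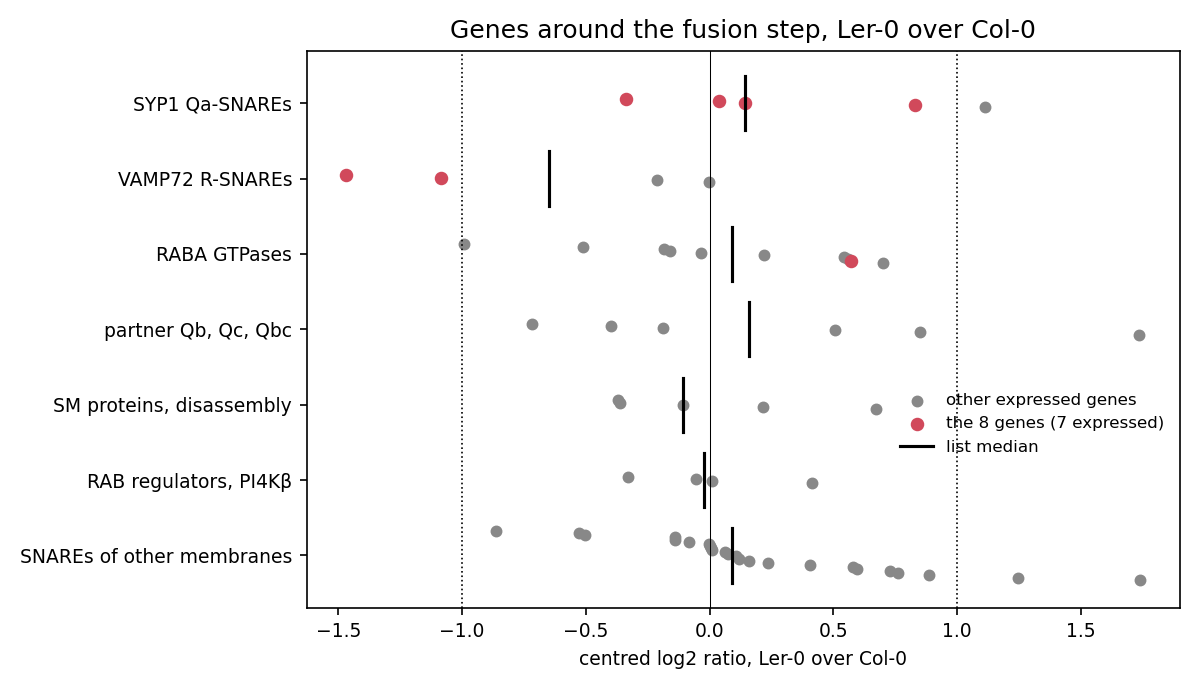
Centred log2 ratios, Ler-0 over Col-0, of the expressed genes in 7 lists around the fusion step, with the 7 expressed members in red, other genes in grey, list medians as black bars and dotted lines at 2-fold. VAMP725 and VAMP726 are the only points at or beyond 2-fold on the Col-0 side, and SNAP30 (1.73) is the farthest to the right among partner SNAREs. RABA1G, not a member, lies just inside the Col-0 line at -0.99.

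The genes with the most similar pair of levels were sought among all coding genes by Euclidean distance on log2(FPKM + 1), which over 2 libraries is a weak measure of likeness. The nearest to RABA4D was the F-box gene AT1G25150 (45.7 FPKM in Col-0 pollen and 70.9 in Ler-0, distance 0.035), and 3 genes lay within 0.1. SYP131 was nearest to the uncharacterized AT3G01250 (302 and 333 FPKM, distance 0.063), SYP124 to the protein phosphatase gene AT3G06270 (260 and 277, distance 0.12) and SYP125 to AT3G11690 (139 and 248, distance 0.091). VAMP726 was nearest to AT2G32970 (26.4 and 13.1, distance 0.044) and VAMP725 to AT1G53785 (5.10 and 1.31, distance 0.0072). The low members had many neighbours, with 87 genes within 0.1 of SYP132, of which AT2G27280 was nearest, and 1672 within 0.1 of VAMP724, of which RLP45 was nearest.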

How the data were processed

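The labels' protocols name the ScriptSeq-v2 kit, and the submitters' processing notes name Subread and the build TAIR10; the sources used here give no version, counting rule or use of strand. The authors deposited FPKM per gene, per the file headers. Multiplying FPKM by gene length (end minus start) gave whole multiples of 1 step for 100% of values (tolerance 0.01), so reads were recovered; FPKM 1 over 1 kb equals 76.5 (Col-0) and 89.0 (Ler-0) reads. Intervals are exact Poisson (levels) and Clopper-Pearson (ratios), at 95%, for counting error only. No p-value was computed, as each ecotype has 1 library. Exon lengths and sequences came from RefSeq TAIR10.1, whose chromosomes hold all deposited intervals; 126 of 126 listed loci matched. Reads beyond the deposited intervals, which for SYP125, VAMP726 and RABA4D hold no exon outside the coding sequence, were not counted.

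The members and lists were chosen with earlier results of these data known. Genes named were the members, expressed genes of the lists (of SNAREs of other membranes, the 2 highest and 2 lowest ratios), and the coding gene nearest each member; AT1G11240, RLP23 and silent relatives were named after their values were seen. Python 3.11.15, scipy 1.17.1 and Biopython 1.88 were used. Ratios and intervals were tested on simulated Poisson reads, the model that the intervals assume, so this checked the code and not the fit to real libraries. Alternatives covered pseudocounts, centring, filters, coding loci alone, exon length and a 4-fold threshold; a ratio without pseudocount was added after seeing the data.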

Additional observations from a re-analysis of the deposited data

How the results depend on the processing

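The 2 members at least 2-fold higher in Col-0 became 1 with centring on genes at FPKM 10 or more, where VAMP726 stood at -0.98, and 0 with a pseudocount of 5, which shrinks low genes (VAMP725 -0.71, VAMP726 -0.88); no alternative put a member 2-fold higher in Ler-0 (0 in each). Of the other 90 pathway genes, 4 were 2-fold higher in Ler-0, against 6 with a pseudocount of 0.1, 1 with a pseudocount of 5 and 0 at a 4-fold threshold, and 0 were higher in Col-0, against 1 with a pseudocount of 0.1. Per exon length the family share of SYP131 moved to 58.5% in Col-0 and 54.7% in Ler-0, that of VAMP726 to 76.2% and 69.3%, and that of RABA4D to 10.7% and 15.6%, while all 8 members kept their rank in each library. Over 59 genes (the 8 members and the 51 expressed genes of the lists) and 6 alternatives (354 values), 6 fell under the 2-fold threshold, 6 passed it, 22 small ratios changed sign and 0 reversed past it. No paired analysis was possible because there is 1 library per ecotype. VAMP724, with 30 and 33 reads, and SYP132, with 269 and 212, are the members that depth limits most.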

Other observations

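SNAREs of other membranes, which serve the endoplasmic reticulum, Golgi, endosomes and vacuole, were mostly expressed at moderate levels in pollen. Of 33 listed, 24 were expressed, 2 of them past 2-fold toward Ler-0 (background 11.3%) and 0 toward Col-0 (background 10.3%), with a median centred log2 ratio of 0.09. The highest ratios were those of VTI13, a Qb-SNARE of post-Golgi membranes, at 1.54 FPKM in Col-0 pollen and 7.85 in Ler-0 (5.10-fold, 95% counting interval 4.39 to 5.95), and SEC20, known in yeast from the retrograde route to the endoplasmic reticulum, at 2.44 and 7.52 (3.08-fold, 2.77 to 3.43). The lowest were those of GOS11, a Golgi Qb-SNARE, at 41.9 FPKM in Col-0 pollen and 23.7 in Ler-0 (ratio 0.564, 0.542 to 0.588), and USE12, annotated as a Use1 membrane fusion protein, at 7.59 and 5.22 (0.689, 0.632 to 0.751).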
